A study of Mus musculus with 18 samples.

Results

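Transporters of the blood-brain barrier were followed through motor learning in RNA from astrocytes of the mouse primary motor cortex (M1). The set was given by name, as transporters of brain endothelium, and comprised Slc2a1, Slc7a5, Slc6a6, Slco1c1, Slco1a4, Slc22a8, Mfsd2a, Pltp, Abcb1a and Abcg2, which are 10 of the 23924 genes read. All 10 were in the table and all 10 passed the filter on low values. C57BL/6 wild-type mice were kept short of water and learned to push a lever on cue for a water reward, and the series asks how training changes the transcripts of M1 astrocytes. The 18 libraries fell into 3 stages of 6, each labelled as 2 females and 4 males: untrained (naive) mice of 12 to 21 weeks, mice with 3 days of training (novice) of 11 to 13 weeks, and fully trained (expert) mice of 13 to 15 weeks. The labels name no transgene, do not state how the astrocytes were separated from other cells and do not say whether naive mice were also kept short of water. Nor do they tie each library to its own mouse, and the p-values therefore reflect variation among libraries, which may be partly technical.

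The endothelial cells of brain capillaries are sealed by tight junctions, so that most solutes enter or leave the brain only through carriers in the cell membrane. Solute carriers bring in glucose, amino acids, thyroid hormone and lipids, while ATP-driven pumps return drugs and metabolites to the blood. Signals of the Wnt and beta-catenin pathway, with ligands made by astrocytes and neurons, set up and maintain this programme in brain endothelium. Some of the carriers are also made by astrocytes, whose endfeet cover the capillaries.

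Promoters are shown for the highest member (Slc2a1), the pair with the highest rank correlation over all 18 libraries (Abcb1a and Slco1a4) and the members with the greatest expert against novice fold changes (Pltp and Slco1c1). Each line holds the 250 bases before the RefSeq start site, 5′ to 3′ on the gene's strand. The build is GRCm38.p6, which is not the build of the expression files. Capitals mark matches on either strand to CTTTGA, the core of TCF/LEF factors that act in Wnt signalling, or to GGGCGG, the GC box.
Slc2a1: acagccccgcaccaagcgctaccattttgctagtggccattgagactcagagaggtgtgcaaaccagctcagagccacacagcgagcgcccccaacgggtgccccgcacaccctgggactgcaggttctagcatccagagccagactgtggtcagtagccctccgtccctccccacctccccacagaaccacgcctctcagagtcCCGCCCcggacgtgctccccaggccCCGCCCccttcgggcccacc
Abcb1a: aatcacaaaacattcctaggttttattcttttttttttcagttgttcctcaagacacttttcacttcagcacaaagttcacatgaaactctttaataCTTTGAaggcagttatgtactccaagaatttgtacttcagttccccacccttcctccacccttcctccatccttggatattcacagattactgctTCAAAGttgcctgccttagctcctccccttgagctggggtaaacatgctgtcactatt
Slco1a4: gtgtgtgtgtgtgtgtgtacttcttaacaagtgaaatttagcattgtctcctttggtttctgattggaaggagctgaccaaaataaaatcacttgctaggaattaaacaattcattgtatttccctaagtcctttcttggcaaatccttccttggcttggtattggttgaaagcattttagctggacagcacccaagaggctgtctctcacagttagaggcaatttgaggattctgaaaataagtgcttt
Pltp: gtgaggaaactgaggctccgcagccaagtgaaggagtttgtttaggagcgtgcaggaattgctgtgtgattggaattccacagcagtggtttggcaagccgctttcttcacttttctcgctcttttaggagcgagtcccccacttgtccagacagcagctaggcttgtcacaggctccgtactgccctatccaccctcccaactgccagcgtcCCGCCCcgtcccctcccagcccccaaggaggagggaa
Slco1c1: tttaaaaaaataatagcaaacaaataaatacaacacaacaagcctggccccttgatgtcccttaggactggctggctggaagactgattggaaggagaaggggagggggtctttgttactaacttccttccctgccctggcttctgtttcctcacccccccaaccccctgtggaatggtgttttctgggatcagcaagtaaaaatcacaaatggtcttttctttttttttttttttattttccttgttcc
These windows lie at chr4:119108495-119108744 (plus strand) for Slc2a1, chr5:8566841-8567090 (plus) for Abcb1a, chr6:141856221-141856470 (minus) for Slco1a4, chr2:164857709-164857958 (minus) for Pltp and chr6:141524104-141524353 (plus) for Slco1c1. RefSeq windows were found for 8 of the 10 members, with 3 for Abcg2 and 1 for each of the others; Slc7a5 and Slc6a6 are named only. As a check of position, 30 bases lying shortly after each start site were sought in annotated transcripts of the gene. They were found for 7 of the 10 windows. The TCF/LEF core was matched 2 times before Abcb1a and 1 time before Mfsd2a, and 13.8% of 32851 windows of all genes held it. The GC box was matched 2 times before Slc2a1, 1 time before Pltp and in 2 of the 3 windows of Abcg2, against 32.7% of all windows. The ETS core CCGGAA, held by 12.0% of all windows, was in 0 of the members' windows. Slco1c1, Slco1a4 and Slc22a8 held none of the 3 motifs. Slco1a4, Abcb1a and Slco1c1 had the lowest share of G and C, at 39.2%, 40.4% and 42.8%, against a median of 52.4% over all windows and 66.4% for Slc2a1. A match is a run of letters and not a shown binding site.

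The deposited values are FPKM, that is, fragment numbers divided by transcript length in kilobases and by library size, and 1 fragment on 1 kb was worth 0.284 FPKM (expert 3, the deepest library by this measure) to 1.87 FPKM (naive 6). The members' values rested on 3.69 fragments per kb at the least (Mfsd2a in naive 6). Markers of astrocytes were high in every library, with means over 18 genes of 5.90 to 7.63 (naive libraries), 5.97 to 7.02 (novice) and 6.37 to 8.15 (expert) on the log2(FPKM + 1) scale. Endothelial markers were present as well, and 0 of 15 were listed at 0 in any library. Their means, taken over 15 genes with no member among them, were 3.70 to 4.09 (naive), 3.27 to 4.24 (novice) and 3.79 to 5.08 (expert). Expert 3 and expert 6 stood highest, at 4.86 and 5.08, above the other 16 libraries. In bulk RNA, fewer or more endothelial cells and less or more RNA per cell cannot be told apart. The level of 1485 genes that brain cells mostly leave silent, such as odorant receptors, was used to part the libraries into 10 with a geometric mean of up to 1.35 FPKM (4 naive, 2 novice, 4 expert) and 8 from 1.91 FPKM (2 naive, 4 novice, 2 expert). The cut was set at the widest gap in log2 with expert 3 left out. Expert 3 lay far below all others, at 0.125 FPKM, with the next lowest, expert 2, at 0.642 FPKM. In novice 1, labelled female, and novice 3, labelled male, Xist and Ddx3y stood at the levels of the other sex.

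Slc2a1, which encodes the glucose transporter GLUT1 of brain capillaries, was the highest member by its mean over all libraries. It stood at 55.5, 70.9 and 113 FPKM (lowest, median and highest) in naive, 43.2, 91.3 and 115 in novice and 58.9, 103 and 199.6 in expert libraries. All 3 stages overlapped, and 2 expert libraries exceeded every naive one.

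Slc7a5, the light chain of the large neutral amino acid transporter LAT1, ran at 8.54, 25.2 and 28.9 FPKM in naive, 14.9, 26.3 and 29.2 in novice and 14.3, 35.2 and 61.2 in expert. Naive 6 was the lowest of all 18 libraries for this gene, and 4 expert libraries exceeded the highest naive and the highest novice library. Slc6a6, the taurine transporter, ran at 32.0, 34.0 and 39.1 FPKM in naive, 27.9, 32.0 and 46.9 in novice and 35.4, 49.5 and 76.5 in expert. It was the steadiest member, with a residual SD of 0.29 on the log2 scale; 5 of 6 expert libraries exceeded every naive one.

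Among the organic anion carriers, Slco1c1, which brings thyroxine into the brain and is found in endothelium and in astrocytes, stood at 32.5, 46.6 and 61.6 FPKM in naive, 30.7, 37.9 and 43.6 in novice and 43.7, 56.1 and 127 in expert. The expert and novice ranges met without overlap, while naive libraries spanned both. Slco1a4, a carrier of organic anions such as bile acids and steroid conjugates, stood at 31.0, 40.7 and 53.6 FPKM in naive, 28.4, 45.1 and 68.5 in novice and 34.8, 55.4 and 122 in expert. Slc22a8, the exchanger OAT3, was the lowest member, at 7.72, 13.0 and 13.4 FPKM in naive, 7.07, 11.3 and 13.2 in novice and 12.1, 15.5 and 23.2 in expert. Of its 6 expert libraries, 5 exceeded every novice one.

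The lipid carriers were Mfsd2a, which takes lysophosphatidylcholine with docosahexaenoic acid into the brain and holds back transcytosis, and Pltp, the secreted phospholipid transfer protein. Mfsd2a stood at 6.88, 20.1 and 28.1 FPKM in naive, 11.9, 19.0 and 27.1 in novice and 15.3, 21.8 and 47.7 in expert, with 2 expert libraries above all others. Pltp stood at 69.1, 73.9 and 99.1 FPKM in naive, 36.1, 62.6 and 75.4 in novice and 60.8, 93.9 and 189.7 in expert. For Pltp, 4 of 6 novice libraries lay below every naive one and 5 of 6 expert libraries lay above every novice one.

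The efflux pumps were Abcb1a, 1 of the mouse genes for P-glycoprotein, and Abcg2, the breast cancer resistance protein. Abcb1a stood at 23.0, 27.7 and 37.6 FPKM in naive, 15.3, 33.5 and 43.0 in novice and 23.5, 43.5 and 79.2 in expert, and 4 expert libraries exceeded every naive one. Abcg2 stood at 10.5, 15.2 and 20.2 FPKM in naive, 8.39, 19.6 and 25.8 in novice and 12.1, 23.0 and 37.9 in expert, and all 3 stages overlapped. Reads of near-identical copies can be split between genes, and the sources used here do not give how such reads were counted. Abcb1b, the other P-glycoprotein gene, ran at 0.320 to 3.19 FPKM over all libraries. Copies of Slco1a4 were lower than it too, with Slco1a1 at 1.32 to 11.2 FPKM, Slco1a5 at 0 to 3.29 and Slco1a6 at 0 to 4.004, and Slc22a6, the neighbour in kind of Slc22a8, ran at 0.355 to 7.29 FPKM.

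**Figure D1:**
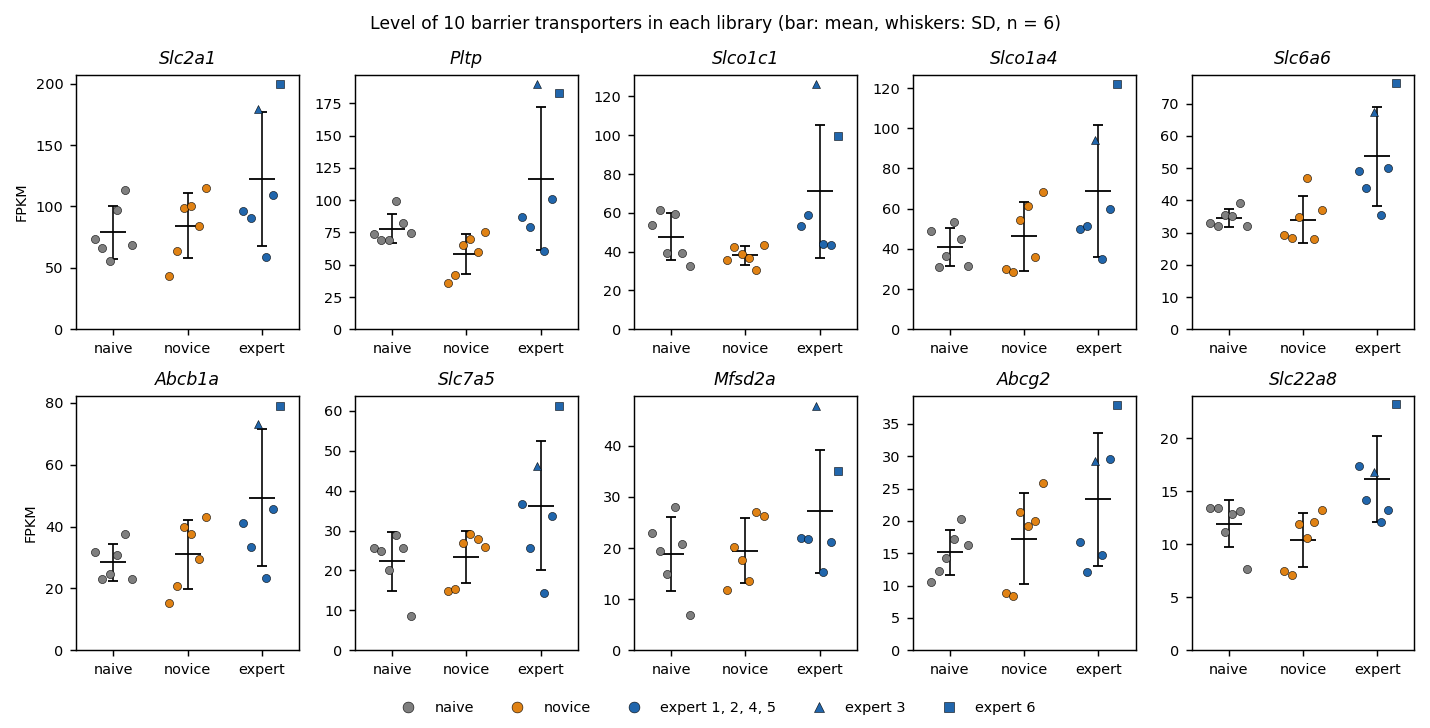
FPKM of each transporter in each library (points) for the naive, novice and expert stages, with the mean (bar) and SD (whiskers) of 6 libraries; panels run from the highest to the lowest member. Expert 3 (triangle) and expert 6 (square) are the 2 highest libraries in 8 of the 10 panels, the exceptions being Abcg2 and Slc22a8, and the other 4 expert libraries lie largely within the range of the naive and novice ones.

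By mean log2 level the order was Slc2a1, Pltp, Slco1c1, Slco1a4, Slc6a6, Abcb1a, Slc7a5, Mfsd2a, Abcg2 and Slc22a8. FPKM is scaled to transcript length, so that levels of different genes can be set side by side. Only 3 of the 9 neighbouring pairs differed by more than the SD of their difference over the 18 libraries: Pltp over Slco1c1, by 0.66 ± 0.36 in log2 and higher in 17 of 18 libraries, Abcb1a over Slc7a5, by 0.40 ± 0.33 (17 of 18), and Abcg2 over Slc22a8, by 0.45 ± 0.43 (14 of 18). Every neighbouring pair, these 3 included, changed places in 1 or more libraries.

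Full training was first compared with no training. All 10 transporters had higher means in expert than in naive libraries, with a median log2 fold change of 0.53, against -0.05 over all 21745 genes tested, of which 43.9% were higher. None passed: limma on log2(FPKM + 1) with Benjamini-Hochberg adjustment called 0 of 10 members (smallest adjusted p = 1.0) and 0% of all genes. At an unadjusted p under 0.05 it marked 3 members, all higher, where 2.86% of all genes were marked, 1.43% as higher and 1.43% as lower. These 3 were Slc6a6, Abcb1a and Slco1a4.

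Slc6a6 averaged 53.7 ± 15.4 FPKM in expert and 34.5 ± 2.71 in naive libraries (SD, n = 6 each), with a log2 fold change of 0.58 (SE 0.20). Abcb1a averaged 49.4 ± 22.2 FPKM in expert and 28.5 ± 5.89 in naive libraries, at 0.68 (SE 0.30). Slco1a4 averaged 68.6 ± 32.8 FPKM in expert and 41.0 ± 9.48 in naive libraries, at 0.63 (SE 0.30). For each of these the stages still overlapped. The other 7 members lay at 0.40 (Slc22a8) to 0.64 (Slc7a5), with 95% intervals that included 0. Slc2a1 was among them, at 122 ± 54.9 FPKM in expert and 79.0 ± 21.8 in naive libraries, 0.55 with an interval of -0.10 to 1.20. With 1 library left out, 4 of these 7 values moved by over 1.5 times, to 0.40 for Slc7a5 and 0.27 for Mfsd2a without naive 6, and to 0.29 for Pltp and 0.29 for Slco1c1 without expert 3.

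Full training was next compared with 3 days of training. All 10 members were higher in expert than in novice libraries, with a median log2 fold change of 0.56, against -0.14 over all genes, 40.4% of which were higher. The median over genes with at least 20 FPKM in 6 libraries was 0.22. Again 0 of 10 members and 0% of all genes were called by limma with Benjamini-Hochberg adjustment (smallest adjusted p of a member 0.45). At an unadjusted p under 0.05 it marked 4 members, where 10.9% of all genes were marked, 4.88% as higher and 5.97% as lower.

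The greatest of these was Pltp, which averaged 117 ± 55.5 FPKM in expert and 58.1 ± 15.7 in novice libraries, a log2 fold change of 0.91 (SE 0.28). Slco1c1 averaged 71.1 ± 34.2 FPKM in expert and 38.1 ± 4.73 in novice libraries, at 0.77 (SE 0.26). Its lowest expert library (43.7 FPKM) lay just above its highest novice library (43.6 FPKM), and it was the only member whose expert and novice libraries did not overlap, as did not those of 0.432% of all genes. Slc6a6, at 0.62 (SE 0.20), and Slc22a8, at 0.59 (SE 0.21), were the other two, and the remaining 6 members lay at 0.41 to 0.62. Of the 10, 4 moved by over 1.5 times with 1 library left out, to 0.24 for Abcg2 without novice 2, 0.24 for Mfsd2a without expert 3, 0.31 for Slc2a1 without novice 1 and 0.32 for Slco1a4 without expert 6.

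Early training against none gave no common direction. In novice against naive libraries 6 of 10 members were higher and 4 lower. Their median log2 fold change was 0.06, against 0.07 over all genes, 57% of which were higher. Limma with Benjamini-Hochberg adjustment called 0 of 10 members and 0% of all genes (smallest adjusted p of a member 0.89). At an unadjusted p under 0.05 it marked 0 members and 4.6% of all genes, 2.72% as higher and 1.88% as lower. Pltp lay lowest, at 58.1 ± 15.7 FPKM in novice and 78.0 ± 11.4 in naive libraries, -0.45 with a 95% interval of -1.05 to 0.14. Slco1c1 lay at -0.29, Slc22a8 at -0.20 and Slc6a6 at -0.04, and the others at 0.06 to 0.12. The moderated F test over the 3 stages called 0 of 10 members and 0% of all genes (adjusted p = 0.75 for each member); at an unadjusted p under 0.05 it marked Slc6a6, Pltp, Slco1c1 and Slc22a8, beside 5.53% of all genes. The comparisons share stages and are not independent of each other.

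The expert values rested largely on 2 libraries. Expert 3 and expert 6 were both above the other 16 libraries in 8 of 10 members, and 1 of them was so in Abcg2 and in Slc22a8. Pltp averaged 186 FPKM in them and 81.9 ± 16.8 FPKM in the other 4 expert libraries. Without both, all 10 members were still higher in expert than in naive and than in novice libraries, but the medians were 0.23 and 0.23 and 0 members were marked at an unadjusted p under 0.05. Of all 21745 genes, 379 against naive and 532 against novice were marked in that fit. Leaving out expert 4, whose levels were the lowest of the expert libraries in 8 of 10 members, moved the counts the other way, to 8 marked members against naive and 8 against novice. The marked genes among all those tested rose as well, to 965 against naive and 4376 against novice, from 622 and 2360 with all libraries. Against naive, 1 member was marked without expert 3, expert 6, naive 2, naive 3 or naive 6, beside 407 to 759 of all genes. Without any other single library but expert 4, 2 to 4 members were marked, beside 583 to 870 genes. Against novice, 4 or 5 members were marked without any single library other than expert 4, beside 972 to 3540 genes. Expert 3 and expert 6 also had the highest endothelial marker means, as given above.

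The members' fold changes differed between the 2 classes of silent-gene signal. Among the 10 libraries of lower signal, the median log2 fold change of the members was 0.69 for expert against naive, 1.28 for expert against novice and -0.54 for novice against naive, where 0 of 10 were higher. At an unadjusted p under 0.05 limma marked 7, 10 and 3 members in these comparisons within the lower class. Of all 21745 genes it marked 1220, 1984 and 839 there. Among the 8 of higher signal the medians were 0.26, -0.10 and 0.23. Limma marked 0 members in each of these, and 1369, 1017 and 1305 of all genes. Only 2 novice libraries were in the lower class, and only 2 naive and 2 expert ones in the higher class. With the silent-gene signal as a covariate over all 18 libraries, the medians were 0.55, 0.51 and 0.04.

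The members were then set against the marker levels of the same libraries. A fit with the stage, the endothelial marker mean and the astrocyte marker mean asked which transcripts moved with vessel or astrocyte transcripts between libraries of the same stage. The level of 8 of the 10 transporters rose with the endothelial marker mean (limma, Benjamini-Hochberg adjusted p under 0.05), against 0.82% of the 21712 genes tested other than the markers, the transporters included. None of the 10 fell with it, against 0.189% of those genes. Abcb1a had the steepest slope, at 1.32 log2 units per log2 unit of the marker mean (SE 0.11, adjusted p = 2.0e-05). Slc2a1 followed at 1.30 (SE 0.12), Slco1a4 at 1.26 (SE 0.13), Abcg2 at 1.26 (SE 0.15), Slc7a5 at 1.17 (SE 0.22) and Pltp at 1.16 (SE 0.10). Slc6a6 and Slco1c1 were less steep, at 0.66 (SE 0.12) and 0.60 (SE 0.11), and their 95% intervals did not reach 1.

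Mfsd2a, at 0.79 (SE 0.25, limma adjusted p = 0.16), and Slc22a8, at 0.62 (SE 0.16, limma adjusted p = 0.071), did not pass; Slc22a8 passed with a filter of 5 FPKM (limma adjusted p = 0.035), with the silent-gene signal as a further covariate (0.038) and without naive 6 (0.036). Without expert 3 and expert 6 the slopes of Abcb1a, Slc2a1, Slco1a4 and Pltp were still called, at 1.36, 1.32, 1.29 and 1.01, while those of Abcg2 (1.14), Slc7a5 (1.501), Slc6a6 (0.56) and Slco1c1 (0.39) were not. With the endothelial mean alone beside the stage, 5 members were called, namely these 4 and Abcg2. The call of Slco1c1 was lost without novice 1 (limma adjusted p = 0.057) and without expert 6 (0.064), and that of Slc7a5 without novice 1 (0.054). With the replicate number of the labels added to the fit as a block, 0 members were called, and the smallest limma adjusted p was 0.096, for Abcb1a.

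In the same fit, Slco1c1 (0.56, SE 0.07), Mfsd2a (0.51, SE 0.16) and Slc7a5 (0.34, SE 0.14) also rose with the astrocyte marker mean, and Abcg2 fell with it, with a slope of -0.27 (SE 0.10). Such slopes were common: 21% of the genes other than the markers had a called positive one and 39.5% a called negative one. Neuron markers had a median slope of 1.03 on the astrocyte mean (8 of 10 called positive, 1 negative), beside 1.02 for the astrocyte markers. The astrocyte mean also parted the 2 classes of silent-gene signal, at 6.79 to 8.15 in the lower and 5.90 to 6.48 in the higher class. The part of astrocyte content in these slopes was not tested. With the silent-gene signal added to the fit 0 members were called on the astrocyte mean, though the slopes of these 4 members did not shrink. They were then 0.57 for Slco1c1, 2.01 for Mfsd2a, 1.90 for Slc7a5 and -0.47 for Abcg2 (limma adjusted p = 0.65, 0.35, 0.28 and 0.80). The negative call of Abcg2 was also lost without expert 4 and without expert 5. Without naive 6, the lowest library for Slc7a5 and Mfsd2a, Slco1c1 was the 1 member still called as positive. The call of Slc7a5 was also lost without naive 1, naive 2, naive 4, novice 1 or expert 4, with trimmed mean of M values factors (slope 0.24, limma adjusted p = 0.084), with the astrocyte mean alone beside the stage (adjusted p = 0.19) and with the replicate block (adjusted p = 0.17).

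**Figure D2:**
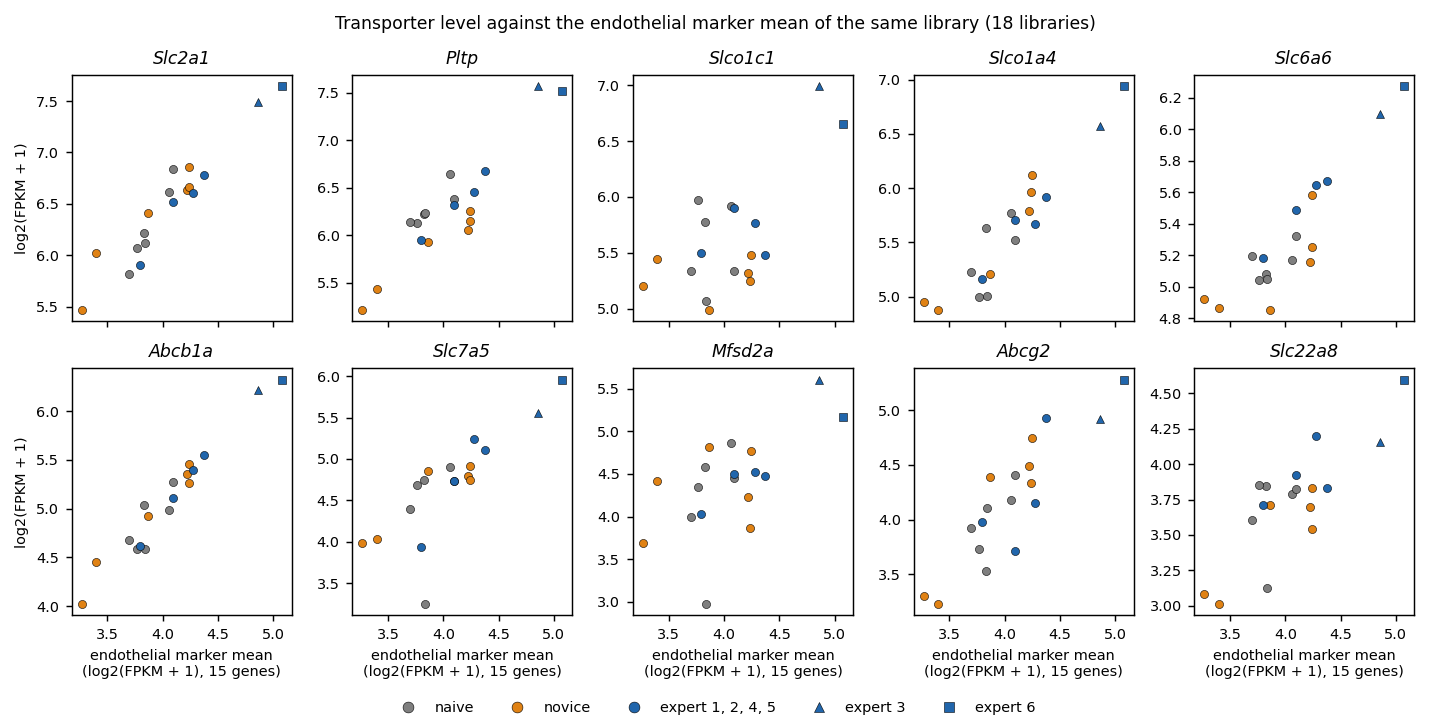
Level of each transporter in log2(FPKM + 1) against the mean of 15 endothelial markers in the same library, for 18 libraries coloured by stage. Slc2a1, Abcb1a and Slco1a4 follow the marker mean closely in all 3 stages, while Slco1c1 and Mfsd2a scatter; expert 3 and expert 6 are at the right-hand end of every panel.

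**Figure D3:**
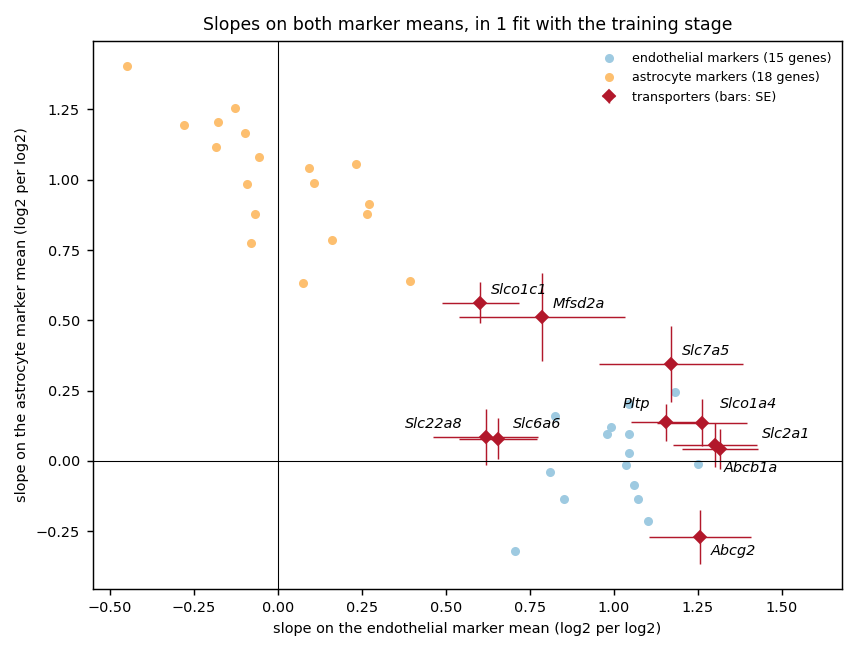
Slope of each transporter (diamonds, bars are SE) on the endothelial marker mean (x axis) and on the astrocyte marker mean (y axis), both in log2 per log2, with the markers themselves for scale. Of the 10 transporters, 6 lie at 1.16 to 1.32 on the x axis, beside or beyond the endothelial markers; Slco1c1 and Mfsd2a lie between them and the astrocyte markers, at 0.56 and 0.51 on the y axis.

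With both marker means as covariates, the expert against naive fold changes centred on 0: the members' median was -0.04, and 3 of 10 were higher. For expert against novice the median was -0.09, with 4 of 10 higher, and for novice against naive it was 0.06, with 7 of 10 higher. In these fits limma called 0% of all genes in each of the 3 comparisons. Pltp was the 1 member with an unadjusted p under 0.05, in novice against naive, at -0.37 (SE 0.10, limma adjusted p = 0.55). All 15 endothelial markers, like the 10 transporters, had higher means in expert than in naive and than in novice libraries. So had all 18 astrocyte markers, with a median log2 fold change of 0.19 against naive and 0.77 against novice libraries, beside 0.54 and 0.52 for the endothelial markers. Pericyte markers were higher in 11 of 11 against naive (median 0.39) and in 9 of 11 against novice libraries (0.38). The part of these markers in the differences between stages was not tested beyond this fit, in which pericyte markers were not a covariate.

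**Figure D4:**
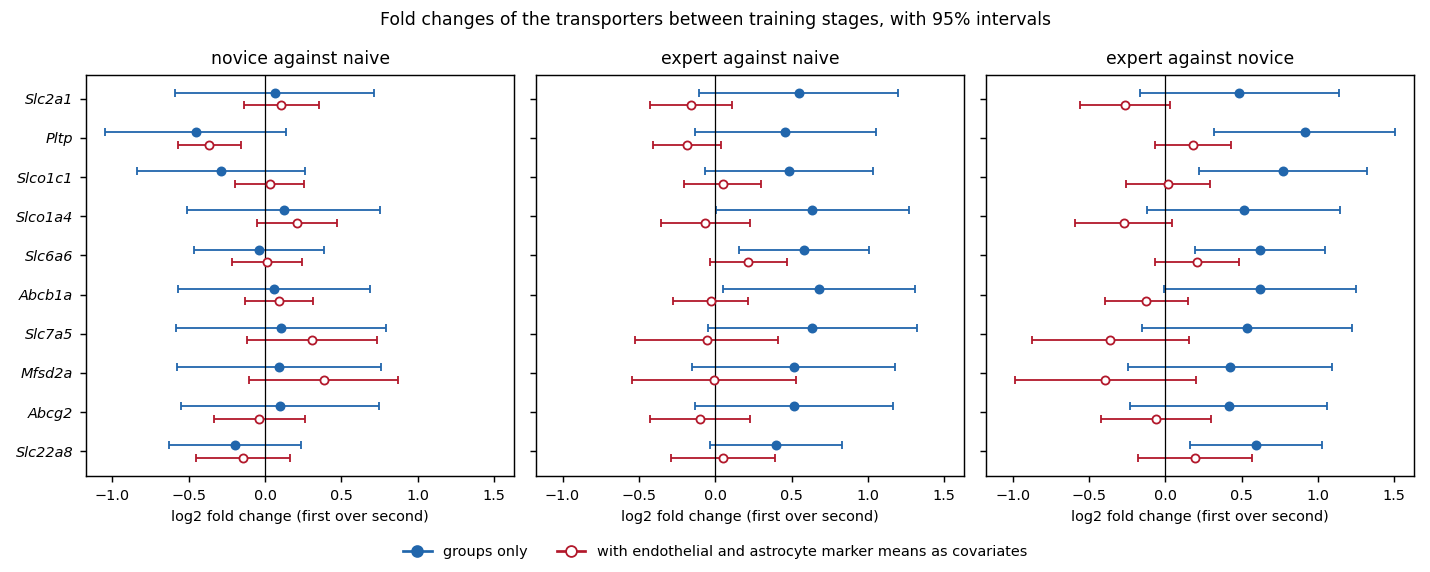
Log2 fold change of each transporter (rows) with its 95% interval in the 3 comparisons, from the fit with the stage alone (filled) and from the fit with the endothelial and astrocyte marker means added (open). With the marker means added, the values of expert against naive lie between -0.18 and 0.22 and each interval is narrower; Pltp in novice against naive is the 1 open interval that stays clear of 0.

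Relative to the endothelial marker mean of its own library, Pltp was 2.29 to 2.58 log2 units higher in naive libraries, 1.83 to 2.06 in novice libraries and 2.16 to 2.72 in expert libraries. The novice libraries overlapped neither the naive ones, as did not those of 0.198% of all genes, nor the expert ones, as did not those of 1.26% of all genes. Expert and naive libraries overlapped for Pltp, and 0.648% of all genes parted them. None of the other 9 members parted any 2 stages on this scale. Pltp was singled out after its values were seen, and astrocyte markers, on which its slope was 0.14 (SE 0.07, limma adjusted p = 0.078; 0.30 and 0.042 with the replicate block), were also lower in novice libraries, by a median of 0.59 in log2 against naive libraries. Their part in the novice value of Pltp was not tested beyond the fit above, in which they are a covariate.

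**Figure D5:**
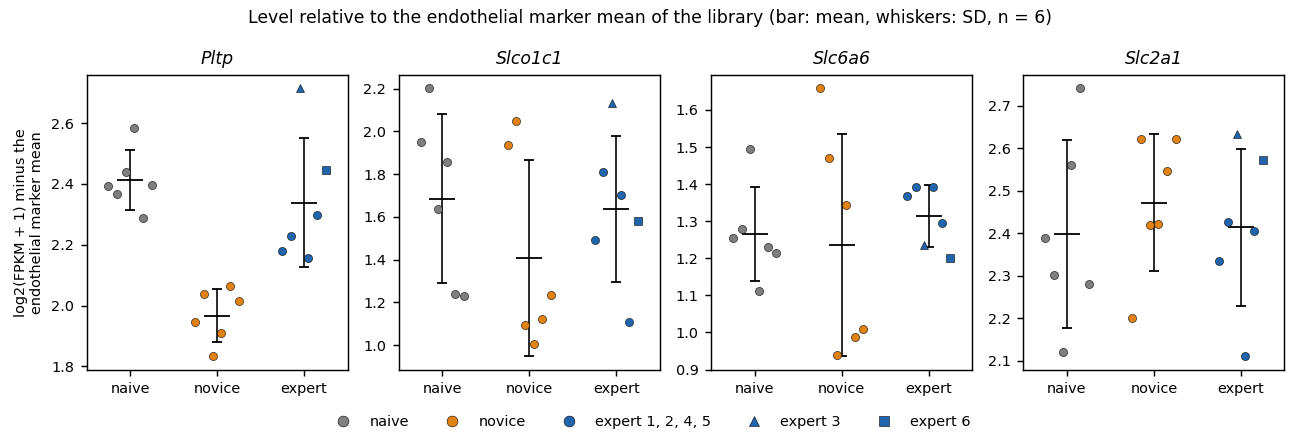
Level of Pltp, Slco1c1, Slc6a6 and Slc2a1 minus the endothelial marker mean of the same library, in log2 units, with the mean (bar) and SD (whiskers) of 6 libraries. The 6 novice libraries of Pltp lie below all naive and expert ones, between 1.83 and 2.06; for the other 3 genes the stages overlap.

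Among themselves the members formed a close group with outlying genes. Spearman's rho over the 18 libraries, each of which gives all genes the same depth and the same vessel content, had a median of 0.67 over the pairs of members. It was highest for Abcb1a with Slco1a4 (0.92) and for Abcb1a with Slc2a1 (0.92), and lowest for Abcg2 with Slco1c1 (0.14). Slco1c1 was the least like the rest, with a median rho of 0.41, and ran closest to Slc22a8 (0.81). Abcb1a was the most like the rest, with a median of 0.84. Computed on deviations from the stage means, the median over all pairs was 0.70 and the order changed in part. The highest pair was then Slc2a1 with Pltp (0.95, against 0.77 on the levels), and Abcb1a with Slco1a4 stood at 0.94. Slco1c1 was still the least like the rest (median 0.49) but ran closest to Mfsd2a (0.66), with 0.47 for Slc22a8. Abcg2 with Slco1c1 was again the lowest pair (0.16).

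The genes most like each member by Spearman's rho over the 18 libraries, among 8484 others with a median of at least 5 FPKM, are given here with their rho. Abcb1a and Slco1a4 were nearest to Tek, the angiopoietin receptor of endothelium (0.96 and 0.94), and then to Gpr116 (0.95 and 0.94). Slc2a1 was nearest to Ly6c1 (0.95) and Sdpr, a caveolar protein (0.94). Slco1c1 was nearest to Slc3a2 (0.95), which encodes the heavy chain that pairs with Slc7a5, and Pltp to Dock6 (0.93). Slc6a6 was nearest to Tns1 (0.92) and Podxl (0.91), Slc22a8 to Ahnak (0.90) and Ptprg (0.90), and Slc7a5 to Wasf2 (0.89) and the efflux pump Abcc4 (0.88). Abcg2 was nearest to Foxc1 (0.91), which is also a marker of fibroblasts and meninges, and Fn1 (0.90). The gene nearest to Mfsd2a was Praf2, at 0.84, the lowest of the members' nearest values.

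Other genes of the barrier were read from lists by function, and 0 of them were called by limma with Benjamini-Hochberg adjustment in any comparison. At an unadjusted p under 0.05 limma marked, in expert against naive libraries, 5 of the 21 solute carriers below, 1 of the 7 pumps, 1 of the 9 receptors, 4 of the 6 caveolar genes and 4 of the 18 Wnt pathway genes, where 2.86% of all genes were marked. In expert against novice libraries it marked 12, 3, 4, 2 and 5 of them, in the same order of lists, where 10.9% of all genes were marked. The counts of higher genes below stand beside 43.9% of all genes higher in expert than in naive libraries. Of these 21 further solute carriers, 18 had higher means in expert than in naive libraries, with a median log2 fold change of 0.38. Slc16a1, the lactate and ketone carrier MCT1, averaged 20.9 ± 7.14 FPKM in expert and 12.4 ± 3.36 in naive libraries, at 0.68 (SE 0.23). Slc3a2 averaged 51.7 ± 21.8 FPKM in expert and 29.0 ± 5.06 in novice libraries, at 0.74 (SE 0.25).

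Of 7 further efflux pumps 4 were higher in expert than in naive libraries, with a median of 0.07. Abcb1b went against Abcb1a, at 1.07 ± 0.355 FPKM in expert and 2.29 ± 0.4997 in naive libraries, -0.67 (SE 0.23), and these libraries did not overlap, as did not those of 0.0782% of all genes. Its values are close to those of 1 or a few fragments per kb. Abcc5 averaged 18.9 ± 7.26 FPKM in expert and 10.7 ± 4.32 in novice libraries, at 0.79 (SE 0.28).

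Of 9 receptors for uptake by transcytosis 8 were higher in expert than in naive libraries (median 0.28), among them Igf1r, the receptor of insulin-like growth factor, at 23.7 ± 8.94 FPKM in expert and 15.9 ± 1.98 in naive libraries. Of 6 caveolar and transcytosis genes 5 were higher (median 0.58), among them Ptrf, which encodes cavin 1, at 32.8 ± 12.3 FPKM in expert and 18.3 ± 3.68 in naive libraries, 0.75 (SE 0.24). Of 18 genes of the Wnt and beta-catenin pathway 16 were higher (median 0.32). Foxq1, a transcription factor of brain endothelium, averaged 10.6 ± 2.20 FPKM in expert and 6.25 ± 0.810 in naive libraries, at 0.66 (SE 0.20), with no overlap. The ligand genes Wnt7a and Wnt7b were lower in novice than in naive libraries, at 4.69 ± 1.66 FPKM in novice and 7.74 ± 1.72 in naive libraries for Wnt7a (-0.66, SE 0.29) and 6.14 ± 1.78 FPKM in novice and 10.5 ± 2.85 in naive libraries for Wnt7b (-0.69, SE 0.27).

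With both marker means as covariates the expert against naive medians were 0.06 for the solute carriers, -0.05 for the pumps, -0.01 for the receptors, 0.20 for the caveolar genes and 0.05 for the Wnt pathway. On the endothelial marker mean, slopes were called positive for 5 of the 21 solute carriers (Slc7a1, Slc16a4, Slc40a1, Slc30a1 and Slc9a3r2, the last a scaffold protein rather than a carrier), 1 of 7 pumps (Abcc4, 0.94), 2 of 9 receptors (Igf1r and Lsr), 2 of 6 caveolar genes (Ptrf and Sdpr) and 3 of 18 Wnt pathway genes (Gpr124, Apcdd1 and Foxq1), beside the 0.82% given above. Called negative slopes numbered 0 in each list. Wnt7a and Wnt7b had called positive slopes on the astrocyte marker mean instead, at 0.55 (SE 0.17) and 0.56 (SE 0.13), as had 21% of genes other than the markers and 8 of 10 neuron markers.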

How the data were processed

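RNA was freed by proteinase K digestion and cleaned on a silica column, and stranded total RNA libraries (SMARTer kit) were read on an Illumina HiSeq, per the labels' protocols. Per the submitters' processing notes, the tools were TopHat and Cufflinks and the mouse build was mm9. The sources used here do not give versions, options, annotation or how reads with several matches were handled. The table deposited by the authors holds FPKM, a unit read from the values: of low values of 126 olfactory receptor genes, 64.5% to 75% per library were whole multiples, to within 0.1, of a step chosen for the closest agreement. This step gave the value of 1 fragment on 1 kb. Library totals are not known, so no counting interval is given. Of 23951 rows, 27 with date-like names were left out, and named genes under 0.001 FPKM are described as listed at 0.

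The 21745 genes that reached 1 FPKM in 6 or more libraries were transformed to log2(FPKM + 1), which understates changes of low genes. The fit used limma 3.58.1 under R 4.3.3 (mean-variance trend, 1 mean per stage, all 18 libraries). Tests were two-sided with Benjamini-Hochberg adjustment over all tested genes and a threshold of 0.05. Over all tested genes, median fold changes (log2) were 0.07 in novice against naive, -0.05 in expert against naive and -0.14 in expert against novice; over genes of at least 20 FPKM they were -0.19, -0.01 and 0.22. The fit was tested on simulated data.

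The members, gene lists and alternatives were chosen with earlier results of these data known. Named were all members, up to 4 genes per list with the smallest F test p, the 3 genes most like each member (predicted loci left out) and close paralogs; genes with a called slope were named after their values were seen. Replicate numbers were not taken as pairs. Alternatives covered the pseudocount, the filter, scaling, covariates, the replicate block and left-out libraries. Promoter motifs were searched in Python 3.11.15.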

Additional observations from a re-analysis of the deposited data

How the results depend on the processing

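Genes called remained at 0 in every comparison under each alternative, except among the 8 libraries of higher silent-gene signal, where 3 genes were called in novice against naive, 4 in expert against naive, 5 in expert against novice and 6 by the F test, with 0 members among them.

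With both marker means as covariates the members' medians were -0.043 (expert against naive) and -0.093 (expert against novice). The single values turned to -0.16 (Slc2a1), -0.030 (Abcb1a), -0.099 (Abcg2), -0.064 (Slco1a4), -0.056 (Slc7a5), -0.0089 (Mfsd2a) and -0.18 (Pltp) in expert against naive, to -0.26 (Slc2a1), -0.12 (Abcb1a), -0.061 (Abcg2), -0.27 (Slco1a4), -0.36 (Slc7a5) and -0.39 (Mfsd2a) in expert against novice, and to -0.038 (Abcg2), 0.030 (Slco1c1) and 0.011 (Slc6a6) in novice against naive. With the endothelial mean alone the medians were -0.0016 and -0.045, with -0.14 (Slc2a1), -0.021 (Abcb1a), -0.16 (Abcg2), -0.035 (Slco1a4) and -0.16 (Pltp) in expert against naive, and -0.22 (Slc2a1), -0.092 (Abcb1a), -0.27 (Abcg2), -0.17 (Slco1a4) and -0.10 (Slc7a5) in expert against novice.

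Among libraries of lower silent-gene signal the medians were -0.54 (novice against naive) and 1.28 (expert against novice), and novice against naive turned to -0.44 (Slc2a1), -0.58 (Abcb1a), -0.58 (Abcg2), -0.50 (Slco1a4), -0.67 (Slc7a5) and -0.40 (Mfsd2a). Among those of higher signal the expert against novice median was -0.10, with -0.30 (Slc2a1), -0.17 (Abcb1a), -0.034 (Abcg2), -0.23 (Slco1a4), -0.30 (Slc7a5) and -0.17 (Mfsd2a), expert against naive turned to -0.13 for Slc2a1, and novice against naive to 0.055 (Slco1c1), 0.22 (Slc22a8) and 0.022 (Slc6a6). Near 0, novice against naive also turned with age as a covariate, to -0.020 (Slc2a1), -0.073 (Abcb1a) and -0.083 (Slco1a4), and with quantile normalization, to 0.094 (Slc6a6). The cause was not tested.

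Leaving out 1 library at a time, members' medians ran from 0.40 to 0.67 (expert against naive), 0.41 to 0.70 (expert against novice) and -0.098 to 0.21 (novice against naive). Novice against naive changed sign within -0.041 to 0.24 (Slc2a1), -0.051 to 0.24 (Abcb1a), -0.033 to 0.27 (Abcg2), -0.0048 to 0.24 (Slco1a4), -0.14 to 0.22 (Slc7a5), -0.13 to 0.011 (Slc6a6) and -0.15 to 0.22 (Mfsd2a).

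Members with a called positive slope on the endothelial mean numbered 8. With 1 library left out they numbered 6 to 9, with only 1 marker mean beside the stage 5 and without expert 3 and expert 6 4. With a replicate block, which leaves fewer residual degrees of freedom, they numbered 0, with slopes of 1.36 for Abcb1a (limma adjusted p = 0.096), 1.32 for Slc2a1 (0.098) and 0.91 for Pltp (0.12). Between stages the replicate block left 0 members called. At an unadjusted p under 0.05 limma then marked 4 members in expert against naive, 5 in expert against novice and 0 in novice against naive. Of all 21745 genes it marked 761, 2963 and 1221, in the same order. The labels do not say what a replicate number marks. Deviations from the stage means correlated above 0.1 in 10 of 18 same-numbered pairs of libraries (median 0.15, lowest -0.36, against a median of -0.06 for other pairs). Of 36 nearest matches, each picked among the 6 libraries of another stage, 5 shared the number, no more than a random pick would give. These values do not settle whether libraries of the same number belong together. On the astrocyte mean, 1 to 3 members had a called positive slope and 0 to 1 a called negative one with 1 library left out. The silent-gene signal as a further covariate gave 0 called positive and 0 called negative slopes there. Slopes turned to -0.17 for Slc6a6 and -0.18 for Pltp, while those of Mfsd2a and Slc7a5 rose to 2.01 and 1.90. A single marker mean gave 0 called negative slopes. The replicate block gave 0 called negative, and slopes of 0.037 for Abcg2 and 0.30 for Pltp (limma adjusted p = 0.042, now called). Trimmed mean of M values factors gave -0.0027 for Slc2a1 and -0.020 for Abcb1a. Slopes on the astrocyte mean changed sign within -0.0031 to 0.071 (Abcb1a) and -0.032 to 0.18 (Slc22a8) with 1 library left out.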
